A study of Mus musculus with 4 samples.

Results

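The globin mRNAs described here are those of 4 hemoglobin genes (Hba-a1, Hba-a2, Hbb-bs and Hbb-bt) and of myoglobin (Mb), chosen by name and not by any measured value, which makes 5 of the 15746 genes analysed. All 5 passed the filter on low values and were among the 12150 genes tested. RNA-seq was performed on 2 libraries of mitochondria isolated from hearts of wild-type mice (WT) and on 2 libraries of the tissue left after their removal, called the rest fraction, to learn which RNAs are found with cardiac mitochondria. According to the methods, mice were perfused with PBS, the minced adult hearts were incubated with trypsin, and the low-speed pellet of cell debris from the homogenate served as rest fraction. The mitochondria, pelleted from the supernatant, were treated with digitonin and RNase A before RNA isolation, and the fragmentation time of their RNA was adjusted, so that these steps and the fraction cannot be told apart. The labels give neither strain nor sex.

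Globins are heme proteins that bind oxygen. Hemoglobin is a tetramer of alpha and beta chains that carries oxygen in the blood, and its mRNA is made in erythroid precursors and persists in reticulocytes, so that in a solid tissue it comes mainly from blood. Myoglobin is a single-chain globin of the cytosol of cardiomyocytes and oxidative skeletal muscle fibres, where it stores oxygen and helps it to reach the mitochondria.

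Hba-a1 (ENSMUSG00000069919, GRCm38 chr11:32283511-32284465, plus strand) and Hba-a2 (ENSMUSG00000069917, chr11:32296489-32297298, plus strand) encode the alpha chain. Their coding sequences of 429 bases differed at 1 base, which leaves all 142 residues the same. The stretch around this base is shown because only reads that cover it, or that cover a difference in the untranslated parts, can be assigned to a single alpha gene. The capital letter marks the base that differs, written C381T for Hba-a1 against Hba-a2, with positions counted from 1 at the A of the start codon.
Hba-a1: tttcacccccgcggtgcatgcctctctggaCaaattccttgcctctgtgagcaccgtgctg
Hba-a2: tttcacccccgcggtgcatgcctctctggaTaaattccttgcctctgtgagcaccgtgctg
Hbb-bs (ENSMUSG00000052305, chr7:103826534-103828096, minus strand) and Hbb-bt (ENSMUSG00000073940, chr7:103812524-103813996, minus strand) encode the adult beta chain. Their coding sequences of 444 bases also differed at 1 base, C417T for Hbb-bs against Hbb-bt, and the 147 residues were the same.
Hbb-bs: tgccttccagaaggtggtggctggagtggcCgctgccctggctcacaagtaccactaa
Hbb-bt: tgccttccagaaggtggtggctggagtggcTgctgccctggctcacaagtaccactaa
These sequences were read 5′ to 3′ from the GENCODE M21 transcripts, which follow the reference genome. Since the labels give no strain, the copies carried by these mice may differ from them, as may the shares of windows given below.

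The near identity of the copies bears on what the hemoglobin values count, because the authors left out reads that aligned to more than 1 place. Of the 625 windows of 75 bases, the read length, in the Hba-a1 transcript, 15.4% occurred in this gene alone, and the share was 19.0% of 480 windows for Hba-a2. Windows were searched in all transcripts and in the sequence before the start of the globin genes described here. For Hbb-bs the share was 35.7% of 554 windows and for Hbb-bt 43.4% of 629 windows. The hemoglobin counts therefore rest on a minor part of each transcript, and the split between the copies of a pair is uncertain. For Mb (ENSMUSG00000018893, chr15:77015487-77050670, minus strand), all 1030 windows occurred in this gene alone. The coding sequence of Mb was 47.3% to 50.7% identical to those of the hemoglobin genes, and alpha and beta genes were 56.5% to 56.7% identical to each other. Exons of Mb are overlapped by 2 genes of the opposite strand, Apol6 and Gm49540, and whether the counting used strand is not given in the sources used here.

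Values are normalized counts, that is reads per gene scaled by the size factor of the library and rounded, as deposited. A single read was worth 3.87 and 2.55 normalized counts in the mitochondrial replicates 1 and 2, and 0.264 and 0.365 normalized counts in the rest replicates 1 and 2. The mitochondrial libraries held about 1.15e+06 and 2.08e+06 reads on nuclear genes, and the rest libraries about 9.68e+06 and 7.63e+06. Genes of the mitochondrial chromosome took 97.6% and 93.5% of the summed values of the mitochondrial replicates 1 and 2, against 63.2% and 67.5% for the rest replicates. Low values are thus least certain in mitochondrial replicate 1, where 3 reads correspond to 11.6 normalized counts. Counting intervals cover counting error only, because PCR copies of a molecule could not be told apart.

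The alpha globin mRNAs lay lower in the mitochondrial than in the rest libraries, but the difference did not pass the test. Hba-a1 had normalized counts of 23 and 99 in the mitochondrial replicates 1 and 2, and of 122 and 227 in the rest replicates 2 and 1. Hba-a2 had normalized counts of 15 and 110 in the mitochondrial replicates 1 and 2, and of 132 and 230 in the rest replicates 2 and 1. For both genes the groups did not overlap, and mitochondrial replicate 1 was by far the lowest library. Mitochondrial replicate 2 was close to rest replicate 2, and their exact 95% counting intervals overlapped. These were 70.7 to 136 against 109 to 136 normalized counts for Hba-a1, and 79.4 to 148 against 119 to 146 for Hba-a2. The mean of Hba-a1 was 61.0 ± 53.7 for mitochondria against 174.5 ± 74.2 for the rest fraction (SD, n = 2 libraries), which gave a log2 fold change of -1.77 with a standard error of 0.76 (limma, adjusted p = 0.195). The mean of Hba-a2 was 62.5 ± 67.2 against 181.0 ± 69.3 (SD, n = 2 libraries), which gave a log2 fold change of -2.06 with a standard error of 0.97 (limma, adjusted p = 0.227). Without mitochondrial replicate 1 the log2 fold changes shrank to -0.74 for Hba-a1 and -0.66 for Hba-a2, and without mitochondrial replicate 2 they were -2.80 and -3.45.

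The beta globin mRNAs had the same order of libraries and likewise did not pass the test. Hbb-bs had normalized counts of 4 and 71 in the mitochondrial replicates 1 and 2, and of 99 and 205 in the rest replicates 2 and 1. The lowest of these values stands for 1 read, with an exact 95% interval of 0.0981 to 21.6 normalized counts, against about 776 reads in rest replicate 1. Hbb-bt had normalized counts of 8 and 43 in the mitochondrial replicates 1 and 2, and of 59 and 119 in the rest replicates 2 and 1. Its value in mitochondrial replicate 1 stands for 2 reads and has an exact 95% interval of 0.938 to 28.0 normalized counts. Again the groups did not overlap, and the step between the mitochondrial libraries was larger than that between the rest libraries. The exact 95% intervals of mitochondrial replicate 2 and rest replicate 2 overlapped for both genes. They were 47.5 to 103 against 87.6 to 112 normalized counts for Hbb-bs, and 25.3 to 69.4 against 50.1 to 68.7 for Hbb-bt. The mean of Hbb-bs was 37.5 ± 47.4 for mitochondria against 152.0 ± 74.95 for the rest fraction (SD, n = 2 libraries), which gave a log2 fold change of -2.92 with a standard error of 1.32 (limma, adjusted p = 0.213). The mean of Hbb-bt was 25.5 ± 24.7 against 89.0 ± 42.4 (SD, n = 2 libraries), which gave a log2 fold change of -2.09 with a standard error of 0.85 (limma, adjusted p = 0.182). Without mitochondrial replicate 1 the log2 fold changes were -0.995 for Hbb-bs and -0.95 for Hbb-bt, and without mitochondrial replicate 2 they were -4.84 and -3.24. In bulk RNA of the fractions, fewer erythroid cells, less hemoglobin mRNA per cell and its removal by digitonin and RNase A treatment cannot be told apart.

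Mb did not share the order of libraries of the hemoglobin genes. Its normalized counts were 8029 and 6533 in the mitochondrial replicates 1 and 2, and 4197 and 3785 in the rest replicates 1 and 2. Both mitochondrial libraries were above both rest libraries on the deposited scale, and the library with the least hemoglobin had the most Mb. The mean was 7281 ± 1058 for mitochondria against 3991 ± 291 for the rest fraction (SD, n = 2 libraries), which gave a log2 fold change of 0.86 with a standard error of 0.21 that did not pass the threshold (limma, adjusted p = 0.0787, unadjusted p = 0.0107). This direction depended on the scaling: relative to the library total the value of Mb was -3.13, where the median of all tested genes was -3.93, and relative to the total without the mitochondrial chromosome it was -0.0030, where the median was -0.98. On the deposited scale the median log2 fold change was -0.14. Because a scaling shifts all genes of a library together, the place of Mb above the median gene could hardly change. Relative to the total of nuclear protein-coding genes without hemoglobin, the value was 0.88 and passed the threshold (limma, adjusted p = 0.0395), as did 5.06% of all tested genes in this direction.

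**Figure D1:**
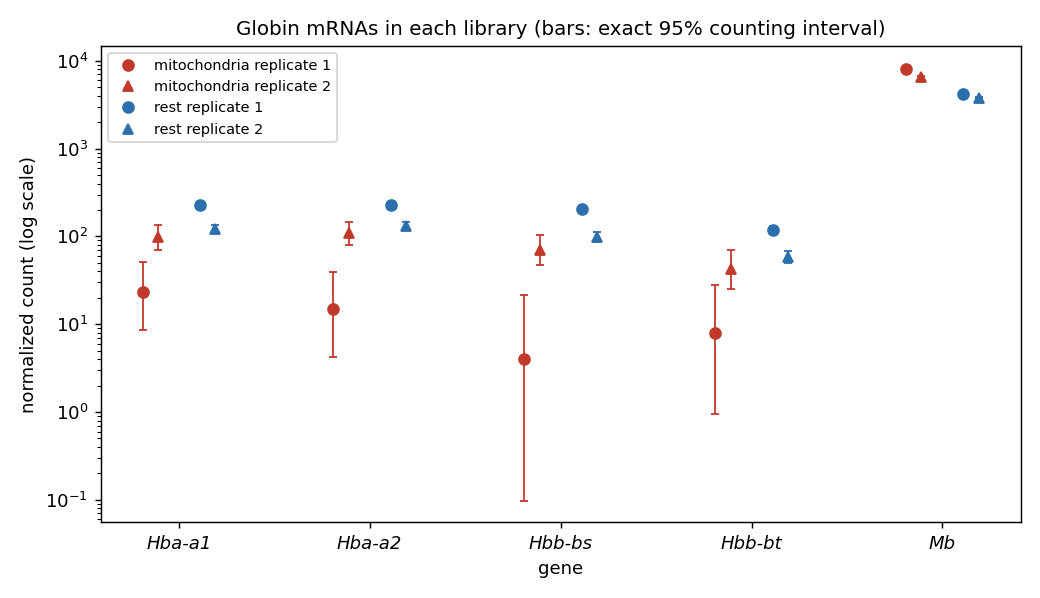
Normalized counts (vertical axis, log scale) of the 5 globin genes in each of the 4 libraries, with mitochondria in red, the rest fraction in blue, and bars for the exact 95% counting interval. Each hemoglobin gene is lowest in mitochondrial replicate 1, between 4 and 23, and highest in rest replicate 1, between 119 and 230, whereas Mb lies between 3785 and 8029 with the mitochondrial libraries on top, an order that depends on the scaling.

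As a group, 4 of 4 hemoglobin genes had both mitochondrial libraries below both rest libraries, while 33.4% of all tested genes had this order. Mb had the opposite order, which was found for 27.7% of all tested genes. For each hemoglobin gene, the counting intervals of mitochondrial replicate 2 and rest replicate 2 overlapped, so that the order of these libraries lies within counting error. None of the 5 genes passed an adjusted p of 0.05 in limma, where 2.16% of tested genes were called higher and 1.39% lower in mitochondria. At an unadjusted p under 0.05, 1 of the 5 genes, Mb, passed, while 14.1% of all tested genes passed as higher and 16.2% as lower in mitochondria. By size of the log2 fold change, 2.78% of tested genes lay below Hbb-bs, 5.39% below Hbb-bt, 5.54% below Hba-a2 and 7.05% below Hba-a1, and 85.2% lay below Mb. Calls of the hemoglobin genes depended on the scaling: relative to the library total all 4 were called lower, with values of -5.61 for Hba-a1, -5.83 for Hba-a2, -6.39 for Hbb-bs and -5.72 for Hbb-bt, where the median of all tested genes was -3.93 and 98.9% of them were called lower. Relative to the total without the mitochondrial chromosome, Hba-a1 (-2.63), Hba-a2 (-2.91) and Hbb-bt (-2.93) were called lower and Hbb-bs (-3.74) was not, where the median was -0.98 and 31.4% of all tested genes were called lower. The 4 hemoglobin genes share sequence and cell of origin, and their values are not independent of each other.

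The size of the hemoglobin difference depended on which libraries were compared. Between the libraries with number 1, the log2 difference of mitochondria against rest was -3.25 for Hba-a1, -3.85 for Hba-a2, -5.36 for Hbb-bs and -3.74 for Hbb-bt. Between the libraries with number 2, it was -0.30 for Hba-a1, -0.26 for Hba-a2, -0.47 for Hbb-bs and -0.45 for Hbb-bt. The corresponding differences of Mb were 0.94 and 0.79, and the medians of the tested genes were -0.11 and -0.06. Within the mitochondrial fraction, replicate 1 was lower than replicate 2 by a log2 difference of -2.06 for Hba-a1, -2.79 for Hba-a2, -3.85 for Hbb-bs and -2.29 for Hbb-bt. Within the rest fraction, replicate 1 was higher than replicate 2 by 0.89 for Hba-a1, 0.80 for Hba-a2, 1.04 for Hbb-bs and 1.00 for Hbb-bt. The hemoglobin genes thus varied together from library to library, while Mb differed by 0.30 between the mitochondrial and by 0.15 between the rest replicates. Mitochondrial replicate 1, the library lowest in hemoglobin, also differed in markers of other cells: a list of 10 fibroblast genes summed to 20725 normalized counts there, 8436 in mitochondrial replicate 2, and 4918 and 6583 in the rest replicates 1 and 2. A list of 10 macrophage genes summed to 1273 there, 558 in mitochondrial replicate 2, and 396 and 537 in the rest replicates 1 and 2. The part of these cells and of depth in the hemoglobin values was not tested.

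Summed over the 4 genes, hemoglobin had normalized counts of 50 and 323 in the mitochondrial replicates 1 and 2, and of 781 and 412 in the rest replicates 1 and 2. The sums rested on about 13, 127, 2955 and 1127 reads. Their exact 95% intervals, 26.8 to 86.1, 270 to 385, 753 to 810 and 388 to 437 normalized counts, did not overlap, so that counting error did not cover the step between any pair of libraries. The intervals of mitochondrial replicate 2 and rest replicate 2 were the nearest to each other, and for each single gene they overlapped. The alpha genes supplied 76.9% of hemoglobin reads in mitochondrial replicate 1 (95% Wilson interval 49.7% to 91.8%), 64.6% in mitochondrial replicate 2 (55.9% to 72.3%), 58.5% in rest replicate 1 (56.7% to 60.3%) and 61.7% in rest replicate 2 (58.8% to 64.5%). The interval of each mitochondrial library included the values of both rest libraries, so that a difference in the alpha to beta balance was not detectable at this depth.

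The ratio of hemoglobin to Mb compares a blood-borne with a cardiomyocyte mRNA inside each library and does not depend on the size factors. Only reads assigned to a single gene were counted, which lowers the hemoglobin share in each library by an unknown amount. Hemoglobin made up 0.623% of the counted hemoglobin and Mb reads in mitochondrial replicate 1 (95% Wilson interval 0.365% to 1.06%). In mitochondrial replicate 2 it made up 4.72% (3.99% to 5.59%). The share was 15.7% in rest replicate 1 (15.2% to 16.2%) and 9.81% in rest replicate 2 (9.28% to 10.4%). Both rest libraries were above both mitochondrial libraries, and the mitochondrial libraries differed from each other by more than counting error. The log2 ratio of hemoglobin to Mb was -5.82 ± 2.10 for mitochondria against -2.81 ± 0.55 for the rest fraction (SD, n = 2 libraries). The difference of -3.01 had an exact 2-sided permutation p of 0.333, the smallest that 2 against 2 libraries allow, so that this design cannot reach 0.05. Without mitochondrial replicate 1 the difference was -1.52.

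**Figure D2:**
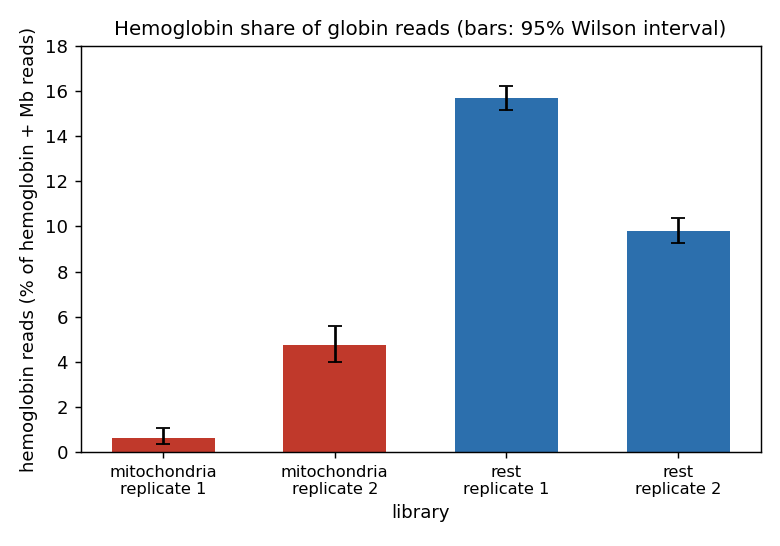
Share of hemoglobin reads among counted hemoglobin and Mb reads (vertical axis, percent, from 0) in each library, with bars for the 95% Wilson interval. Reads that aligned to several places were not counted. The share goes from 0.623% in mitochondrial replicate 1 and 4.72% in mitochondrial replicate 2 to 9.81% in rest replicate 2 and 15.7% in rest replicate 1.

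Compared per length, Mb was among the most abundant mRNAs of every library, and each hemoglobin gene was counted at a lower level. The hemoglobin levels and ranks are too low by an unknown amount, because all exon bases enter the length although only 15.4% to 43.4% of the read windows of these genes, against 100% for Mb, occur in a single gene. Per kilobase of exon, Mb had 5381 and 4379 normalized counts in the mitochondrial replicates 1 and 2, which ranked it 11 in both among 12306 protein-coding genes. In the rest replicates 1 and 2, Mb had 2813 and 2537 normalized counts per kilobase and ranked 5 and 6. Ranks do not depend on the size factors, and by rank Mb was slightly higher in the rest fraction. Of the hemoglobin genes, Hba-a2 had the highest mean per kilobase, with 93.7 ± 100.7 for mitochondria against 271 ± 104 for the rest fraction (SD, n = 2 libraries), followed by Hba-a1, Hbb-bs and Hbb-bt in both fractions. Hbb-bt had the lowest, with 36.3 ± 35.2 for mitochondria against 126.6 ± 60.4 for the rest fraction (SD, n = 2 libraries). Neighbours in this order did not differ beyond their spread, and the order within a pair rests on the few reads that tell the copies apart. In rest replicate 1, where hemoglobin was highest, Hba-a2 ranked 91 and Hbb-bt 217. In mitochondrial replicate 1, where it was lowest, Hba-a2 ranked 2872 and Hbb-bs 7262.

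Hemoglobin genes are short, and short genes as a class had the opposite sign of fold change on the deposited scale, to which the values of this paragraph refer. Among tested nuclear protein-coding genes, the 474 with at most 1500 bases of merged exon had a median log2 fold change of 1.10, and 86.1% of them had a positive value. The 10137 longer genes had a median of -0.17, with 41.2% positive. The limit of 1500 bases was chosen after the values were seen. Hba-a1 with 812, Hba-a2 with 667, Hbb-bs with 768 and Hbb-bt with 703 exon bases all belong to the short class, yet had values from -2.92 to -1.77. Only 7 other genes of the class, 1.48% of it, had a log2 fold change as low as that of Hba-a1 or lower. These were Zfp982, Plscr5, Vmn1r2, Myl9, Mustn1, Myl7 and Haus7, which are named after their values were seen. Mb with 1492 exon bases ranked 295 of the 474 short genes from the top, and its 0.86 was below their median.

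**Figure D3:**
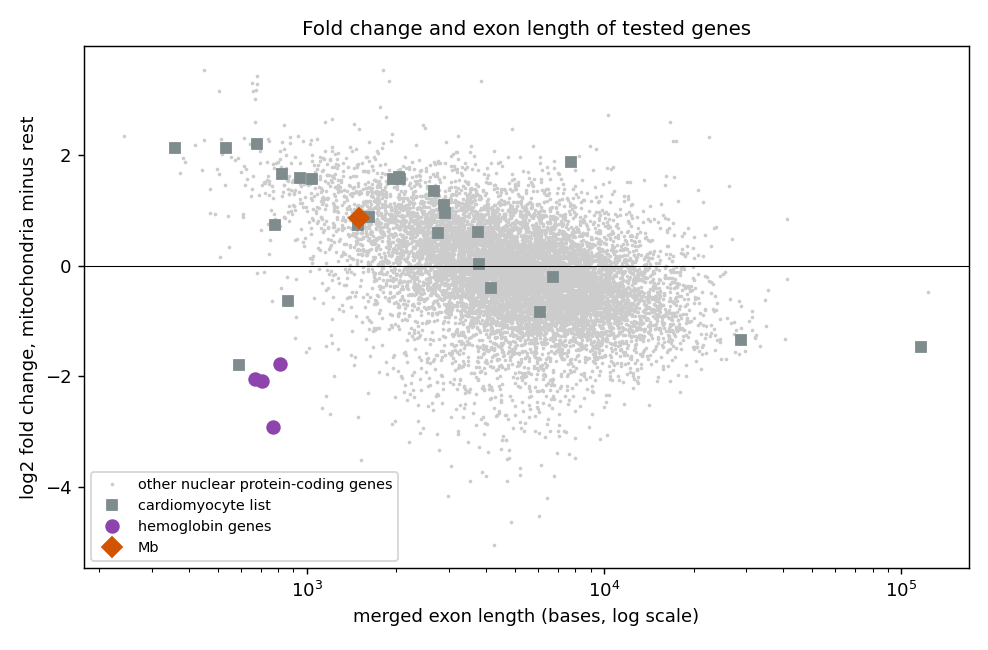
Log2 fold change of mitochondria against rest on the deposited scale (vertical axis) against merged exon length in bases (horizontal axis, log scale) for tested nuclear protein-coding genes, with the cardiomyocyte list as grey squares. The 4 hemoglobin genes (purple) lie between -2.92 and -1.77 at lengths where the median gene is at 1.10, and Mb (orange) lies at 0.86, a sign that turns when libraries are scaled to their total.

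Other mRNAs of the red blood cell gave a mixed picture. Of a list of 30 such genes, 16 were analysed, 14 were tested and none was called by limma, with 1 higher and 2 lower at an unadjusted p under 0.05, beside 14.1% and 16.2% of all tested genes, and a median of -0.28. The summed level of the list was 3387 and 2898 in the mitochondrial and 3113 and 3322 in the rest libraries, and both mitochondrial libraries were below both rest libraries for 5 genes and above them for 1 of the 14, beside 33.4% and 27.7% of all tested genes. Alas2, the erythroid enzyme that starts heme synthesis, was at 0 and 18 normalized counts in the mitochondrial replicates 1 and 2, and at 43 and 28 in the rest replicates 1 and 2. The 0 in mitochondrial replicate 1 has an exact 95% interval that reaches 14.3 normalized counts, and the log2 fold change of -3.03 did not pass the test (limma, adjusted p = 0.233). Alas2 had the same order of libraries as each hemoglobin gene. Ank1, an ankyrin of the red cell membrane that is also made in muscle, had 538 and 393 in mitochondria against 226 and 237 in the rest fraction (0.99, limma adjusted p = 0.0677). Defining genes such as Slc4a1 and Ahsp were not analysed here.

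Genes of other blood cells were low or were not analysed here. No gene of a list of 10 neutrophil markers was among the genes analysed, and 2 of 10 platelet genes were tested, neither of them called by limma, with 1 higher and 0 lower at an unadjusted p under 0.05 (14.1% and 16.2% of all tested genes). The platelet list summed to 35 and 46 normalized counts in the mitochondrial and to 48 and 42 in the rest libraries, with Gp1ba, Itga2b, Clec1b and Nrgn at 0 in mitochondrial replicate 1. Pf4, a chemokine of platelets and macrophages, had 31 and 15 normalized counts in mitochondria and 7 and 7 in the rest fraction (log2 fold change 1.5, limma adjusted p = 0.140). Gp1ba, a platelet receptor subunit, had 0 and 5 in the mitochondrial replicates 1 and 2, and 12 and 11 in the rest replicates 1 and 2 (log2 fold change -2.35, limma adjusted p = 0.209). Clec1b, which was not tested, had 0 and 3 against 10 and 9, so that Gp1ba and Clec1b had the order of libraries of the hemoglobin genes and Pf4 did not. These values stand for few reads in the mitochondrial libraries.

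Cardiomyocyte mRNAs showed where Mb stood among the genes of its own cell type. All 26 genes of the cardiomyocyte list were analysed and tested. Of these, 6 were called higher and 0 lower in mitochondria by limma, beside 2.16% and 1.39% of all tested genes, with a median of 0.92, close to the 0.86 of Mb. These calls are relative to the deposited size factors, since relative to the library total only 2 of all tested genes were called higher. The 6 genes encode small proteins of respiration, lipid binding and contraction. Cox6a2, Cox7a1 and Cox8b, muscle subunits of cytochrome c oxidase, had log2 fold changes of 2.20, 2.14 and 2.13 (limma, adjusted p = 0.0487, 0.0427 and 0.0427). Fabp3, the heart fatty acid binding protein, had 1.67, and the contractile genes Myl3 and Tnnc1 had 1.61 and 1.58 (limma, adjusted p = 0.0427, 0.0469 and 0.0469). Ttn and Ryr2, which encode very large proteins of the sarcomere and of calcium release, had -1.47 and -1.35 and were not called. Across the 26 genes, Spearman's rho between exon length and log2 fold change was -0.49, a description over genes that share the libraries and the size factors. The summed level of the list, which is dominated by Ttn and Myh6, was 480292 and 367132 in the mitochondrial and 620944 and 554157 in the rest libraries.

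The remaining globin analysed, Cygb (cytoglobin, made mainly by fibroblast-like cells), had normalized counts of 74 and 122 in the mitochondrial replicates 1 and 2, and of 83 and 130 in the rest replicates 1 and 2. The groups overlapped, and the log2 fold change was -0.13 (limma, adjusted p = 0.834). Of 16 genes in the globin family list, 6 were tested, 5 had a negative and 1 a positive log2 fold change.

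Genes of heme synthesis did not share a single order of libraries. Of 9 such genes, Alas2 included, all were tested and none was called by limma, with 1 higher and 1 lower at an unadjusted p under 0.05, beside 14.1% and 16.2% of all tested genes, and a median of 0.23. Alad, which joins the first precursor molecules, had 77 normalized counts in each mitochondrial and 43 in each rest library (0.83, limma adjusted p = 0.0941). Ppox, a late enzyme of the pathway, had 4 and 8 in mitochondria and 21 and 16 in the rest fraction (-1.53, limma adjusted p = 0.141), the order of libraries that Alas2 and the hemoglobin genes had. Fech, which inserts iron to form heme in the mitochondrion, had 236 and 171 against 192 and 202 (0.03, limma adjusted p = 0.942). Of 25 genes of heme and iron handling, 19 were tested and none was called by limma, with 4 higher and 2 lower at an unadjusted p under 0.05, beside the 14.1% and 16.2% of all tested genes. Fth1, the heavy chain of the iron store ferritin, had 2943 and 2000 normalized counts in mitochondria and 851 and 852 in the rest fraction (1.51, limma adjusted p = 0.0502). Flvcr1, a heme exporter, had 4 and 5 against 17 and 19 (-1.79, limma adjusted p = 0.0886).

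To describe which genes resembled each globin over the 4 libraries, the distance between centred log2 values was computed for 5556 genes with a mean above 50 normalized counts. For Hba-a1 the nearest genes were Sned1, Hbb-bt and Helz2, with distances of 0.309, 0.366 and 0.475. For Hba-a2 they were Helz2, Hbb-bt and Thoc2l, with distances of 0.300, 0.387 and 0.526. For Hbb-bt they were Helz2, Hba-a1 and Hba-a2, with distances of 0.304, 0.366 and 0.387. Hbb-bt was thus listed for both alpha genes and they for Hbb-bt, but the nearest gene of each was not a globin. Hba-a1 and Hba-a2 were not listed for each other. Hbb-bs, whose value in mitochondrial replicate 1 rests on 1 read, was listed for no other globin. It had no gene within 1.15, the distance to Hba-a2. Thoc2l and Gm37677 followed for Hbb-bs, at 1.21 and 1.33. Helz2 had normalized counts of 12 and 69 in mitochondria and 159 and 105 in the rest fraction. For Mb the nearest genes were R3hcc1l, Twnk and Rangap1, with distances of 0.0287, 0.0379 and 0.0438. Distances over 4 libraries are a description.

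**Figure D4:**
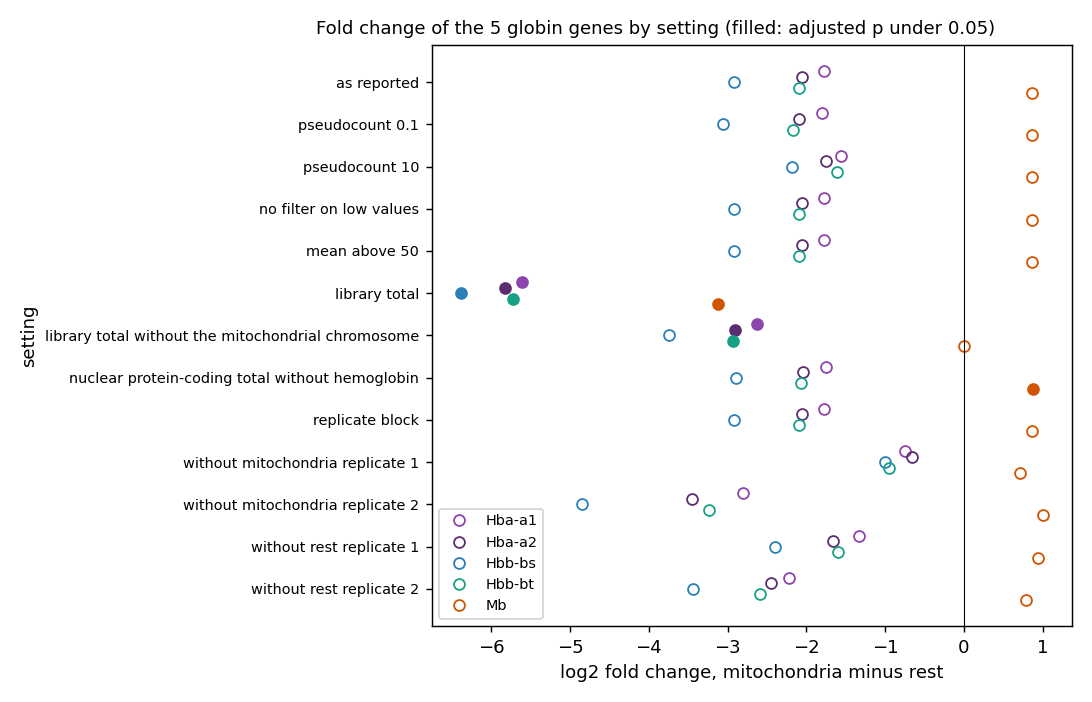
Log2 fold change of mitochondria against rest (horizontal axis) for the 5 globin genes as reported and under each alternative setting (vertical axis), with filled circles for an adjusted p under 0.05. The hemoglobin genes stay below 0 in all 48 combinations of gene and alternative, with 7 called, all under the scalings to the library total and to the total without the mitochondrial chromosome (98.9% and 31.4% of all tested genes called lower), whereas Mb lies at -3.13 for scaling to the library total and at -0.0030 without the mitochondrial chromosome. Most of these alternatives could not turn the sign of the hemoglobin genes.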

How the data were processed

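All 4 RNA-seq libraries, 2 per fraction, were grouped by their labels. The authors trimmed reads, aligned them to mm10 (GRCm38), excluded reads with several alignments, counted exon reads per gene and divided the counts by size factors; the submitters' processing notes name Trimmomatic 0.39, STAR 2.7.10a, featureCounts 2.0.2 and DESeq2 1.30.1. The deposited signal is this normalized count, rounded. Depth per library was estimated from the spacing of the values. In the rest libraries a read was worth less than 1 normalized count, so whole reads could not be restored and no count test was run. limma 3.58.1 (R 4.3.3, with mean-variance trend) was fitted to log2(normalized count + 1) of the 12150 genes that reached 10 normalized counts in 2 or more libraries. Fold changes are on this scale, which understates those of low genes. P-values were 2-sided and Benjamini-Hochberg adjusted over all tested genes, with a threshold of 0.05. The sources do not say that replicates came from separate animals, so p-values measure only the spread between these libraries. The spacing estimate and the fit were tested on simulated data. Exons and transcripts came from GENCODE M21.

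The members and gene lists were chosen with earlier results of these data known. Named were all members, other globins, called genes of each list and those with its most extreme values, the 3 nearest genes of each member and genes overlapping a member, and the text gives the more informative of these. Some genes that this rule names are not reported here. Alternatives changed the pseudocount (0.1, 10), the filter, the scaling, the replicate block and the libraries used. Biopython 1.88, matplotlib 3.10.9, scipy 1.17.1, pandas 2.3.3 and numpy 2.4.6 were used under Python 3.11.15.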

Additional observations from a re-analysis of the deposited data

How the results depend on the processing

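The log2 fold changes of the hemoglobin genes were negative in all 48 combinations of gene and alternative and were called by limma in 7, all under 2 scalings in which 98.9% and 31.4% of all tested genes were called lower. This sign could hardly change, so the count of combinations adds little. The filters and the replicate block left the fold changes as they were, and these 2 scalings shifted all genes down. Groups that do not overlap also keep their sign under another pseudocount or with a library left out. Scaled to the library total, which is mostly mitochondrial-chromosome RNA, they were -5.61 (Hba-a1), -5.83 (Hba-a2), -6.39 (Hbb-bs) and -5.72 (Hbb-bt), all called, with a median of -3.93 over all tested genes. Scaled to the total without that chromosome, Hba-a1 (-2.63), Hba-a2 (-2.91) and Hbb-bt (-2.93) were called and Hbb-bs was not (-3.74, limma adjusted p = 0.0544). Mb turned to -3.13 and -0.0030 under these scalings and was called at 0.88 when scaled to nuclear protein-coding genes without hemoglobin. With a library left out, values ranged from -2.80 to -0.74 (Hba-a1), -3.45 to -0.66 (Hba-a2), -4.84 to -0.995 (Hbb-bs), -3.24 to -0.95 (Hbb-bt) and 0.71 to 1.01 (Mb), and the hemoglobin to Mb log2 ratio from -4.49 to -1.52. The remaining library of a group was then assumed to vary like the others, and 0 genes were called by limma in either direction, with 590 to 2333 higher and 468 to 3324 lower at an unadjusted p under 0.05.

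Against 262 genes called higher and 169 lower, limma called 0 and 0 with a pseudocount of 0.1 (1694 and 1754 at an unadjusted p under 0.05), 536 and 580 with a pseudocount of 10, 279 and 630 without the filter, 790 and 670 of genes with a mean above 50, 2 and 12022 scaled to the library total, 129 and 3819 without the mitochondrial chromosome, 615 and 412 scaled to nuclear protein-coding genes, and 470 and 309 with the replicate block. The cause was not tested. The replicate block called no globin gene (adjusted p = 0.154 for Hba-a1, 0.162 for Hba-a2, 0.148 for Hbb-bs, 0.146 for Hbb-bt and 0.0733 for Mb, limma). The labels do not say that libraries of the same number share an animal, and replicate differences of the fractions correlated with r = 0.13 across genes, which share libraries. Depth limits the hemoglobin values most in mitochondrial replicate 1, where all 4 genes rest on 13 reads.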

Other observations

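Markers of other heart cells showed several profiles, given as values only, and are to be read beside the 14.1% of all tested genes that passed as higher and the 16.2% as lower at an unadjusted p under 0.05. Of 12 endothelial genes, 1 had a positive and 11 a negative log2 fold change, with a median of -0.76 and none called by limma (1 higher and 8 lower at an unadjusted p under 0.05). Pecam1, an adhesion molecule of endothelial cells, had 190 and 240 normalized counts in mitochondria and 449 and 409 in the rest fraction (limma adjusted p = 0.0608). Flt1, a VEGF receptor, had 376 and 344 against 801 and 675 (-1.03, limma adjusted p = 0.0545). Of 7 smooth muscle and pericyte genes tested, 1 was called lower, beside 1.39% of all tested genes: Myh11, smooth muscle myosin, had 43 and 61 in mitochondria and 380 and 800 in the rest fraction (-3.40, limma adjusted p = 0.0427).

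None of 10 fibroblast genes was called by limma, with 3 higher and 0 lower at an unadjusted p under 0.05 and a median of 0.97. Of 10 macrophage genes, 9 were tested and none was called, with 3 higher and 0 lower at an unadjusted p under 0.05 and a median of 0.88. Of 14 lymphocyte and leukocyte genes, 3 were tested and none was called (0 and 0 at an unadjusted p under 0.05, limma), with a median of 0.70. Of 10 tested genes of the hypoxia and oxygen response, none was called by limma (2 higher and 1 lower at an unadjusted p under 0.05). Vegfa, the endothelial growth factor, had 256 and 224 in mitochondria and 531 and 451 in the rest fraction (-1.03, limma adjusted p = 0.0563).

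Markers of the atria differed between libraries of both fractions. Myl7, an atrial myosin light chain, had 19 and 173 normalized counts in the mitochondrial replicates 1 and 2, and 119 and 349 in the rest replicates 1 and 2. Nppa, the atrial natriuretic peptide, had 112 and 431 in the mitochondrial and 180 and 644 in the rest replicates. Like Myl7 and Nppa, hemoglobin was lower in mitochondrial replicate 1 than in mitochondrial replicate 2. In contrast to them, it was higher in rest replicate 1 than in rest replicate 2. Whether the amount of atrial tissue played a part was not tested.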
